A study of Mus musculus with 342 samples.

Results

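CC058/Unc is 1 of the 44 lines of Collaborative Cross mice measured in this series, a panel of recombinant inbred lines bred from genetically diverse founders. Its members were chosen by the line name in the sample labels, which gave 8 of the 342 liver arrays. The 4 vehicle mice received 0.5% methylcellulose in water and no drug. The 4 TAK-875 mice received 600 mg/kg of TAK-875 in the same vehicle. All 8 were males, about 8 to 10 weeks old when dosed once by oral gavage at 10 ml/kg, and livers were taken 24 hours later. Animals were treated in pairs of 1 vehicle and 1 TAK-875 mouse, and the CC058/Unc pairs carry study pair numbers 25, 26, 27 and 28, written here as pairs 1, 2, 3 and 4. The other 43 lines, with 167 pairs dosed by the same scheme, served as the comparison. The series title writes another compound number, while the labels and the design name TAK-875, and the labels were followed. The 8 mice come from 1 line bred to be inbred, so differences from other lines are differences of this line and not of a defined allele.

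TAK-875 (fasiglifam) activates GPR40, a receptor for free fatty acids, and was developed for type 2 diabetes until liver injury ended its trials. Several nuclear receptors read fatty acids and foreign compounds in the liver. PPARA, the receptor for fatty acids, drives peroxisomal and mitochondrial fatty acid oxidation, while CAR and PXR drive drug-metabolising enzymes and transporters. The SREBP factors drive cholesterol and fatty acid synthesis. The liver also keeps a circadian clock, in which the activator DBP and the repressor NFIL3 bind the same DNA element, the D-box.

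The values are log2 expression levels of probe sets on 1-colour arrays, and 9093 genes were tested. A difference of 1 on this scale is a 2-fold difference. The livers carried the markers their label asks for: albumin (Alb) lay above 99.967% of genes in the vehicle livers and its response was 0.04. The pancreas markers Prss2 and Cela1 had vehicle means of 4.45 and 5.18, and the muscle markers Ckm and Acta1 of 3.17 and 4.15. The bile duct marker Krt19 was at 3.43, and all these means lay below the array medians. The muscle gene Tnni2 was brighter, at 6.31 in the vehicle liver of pair 1 and 5.30 to 5.45 in the other vehicle livers. Medians of the 8 arrays ran from 5.79 to 6.12. The median correlation of an array with its own group was 0.955 for the vehicle liver of pair 1 and 0.978 to 0.984 for the other 7. In that liver, 206 genes lay more than 1 log2 unit above and 502 below the mean of the other 3 vehicle livers, against at most 62 and 124 in any of the other 7 arrays. Of the 72 genes whose mean response was below -1, 46 were more than 1 unit higher in that liver than in the other vehicle livers, and 6 of the 72 were called. Of the 40 genes with a response above 1, 2 had that liver more than 1 unit lower, and 6 of the 40 were called. Results are therefore given with and without pair 1 where it decides them.

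TAK-875 changed few genes past the test in CC058/Unc: 10 rose and 7 fell, 17 of the 9093 genes (0.187% called, 0.11% higher and 0.077% lower). The rises were the clock gene Dbp, the lipid genes Pctp, Ehhadh, Acaa1b and Fads2, the detoxification gene Gstt2, the receptor Nr1i3, and Krt20, Inf2 and Lrp11. Those that fell were the clock repressor Nfil3, the MHC class I gene H2-K1, the complement gene C2, and Gsn, Car1, Tmc1 and Ccm2l. Each of the 17 moved the same way in 4 of 4 pairs, and in 16 of them the vehicle and TAK-875 livers did not overlap, as was true of 8.87% of all genes. A call means a Benjamini-Hochberg adjusted p under 0.05 from limma on pair differences, with the spread estimated over all 171 pairs. On its own, a sign test over 4 pairs cannot go below an exact p of 0.125.

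The direction of all 17 changes was that of the mean of the other 43 lines, and 13 were also called in that mean, where 26.3% of all genes were called. For Krt20, Tmc1 and H2-K1 that mean barely moved, so its sign says little. The share of all genes with the same direction was not counted. CC058/Unc did not stand at either end of the panel in the number of calls: the other lines had 0 to 1380 calls with a median of 26, and 25 of them had more than CC058/Unc. Across all genes, the CC058/Unc response correlated with the mean of the other lines by r = 0.409, against 0.057 to 0.527 for each other line against the mean of the rest, as a description over genes that are not independent. Tested against the mean of the other lines, 3 genes differed (0.033% called): Pctp and Krt20 with higher and H2-K1 with lower responses. The median absolute response was 0.157, within the range of 0.0995 to 0.273 of the other lines. Of the 25 genes with the largest mean change in the other lines, 25 had the same direction here, 20 in all 4 pairs, and 20 were larger in size in CC058/Unc, while 5 passed the test. The calls rest on the whole set of pairs: without pair 1 there were 6, of which 4 were among the 17 (Pctp, Ehhadh, Gstt2 and Krt20). Without pair 2 there were 10, and without the pairing of mice 9.

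**Figure D1:**
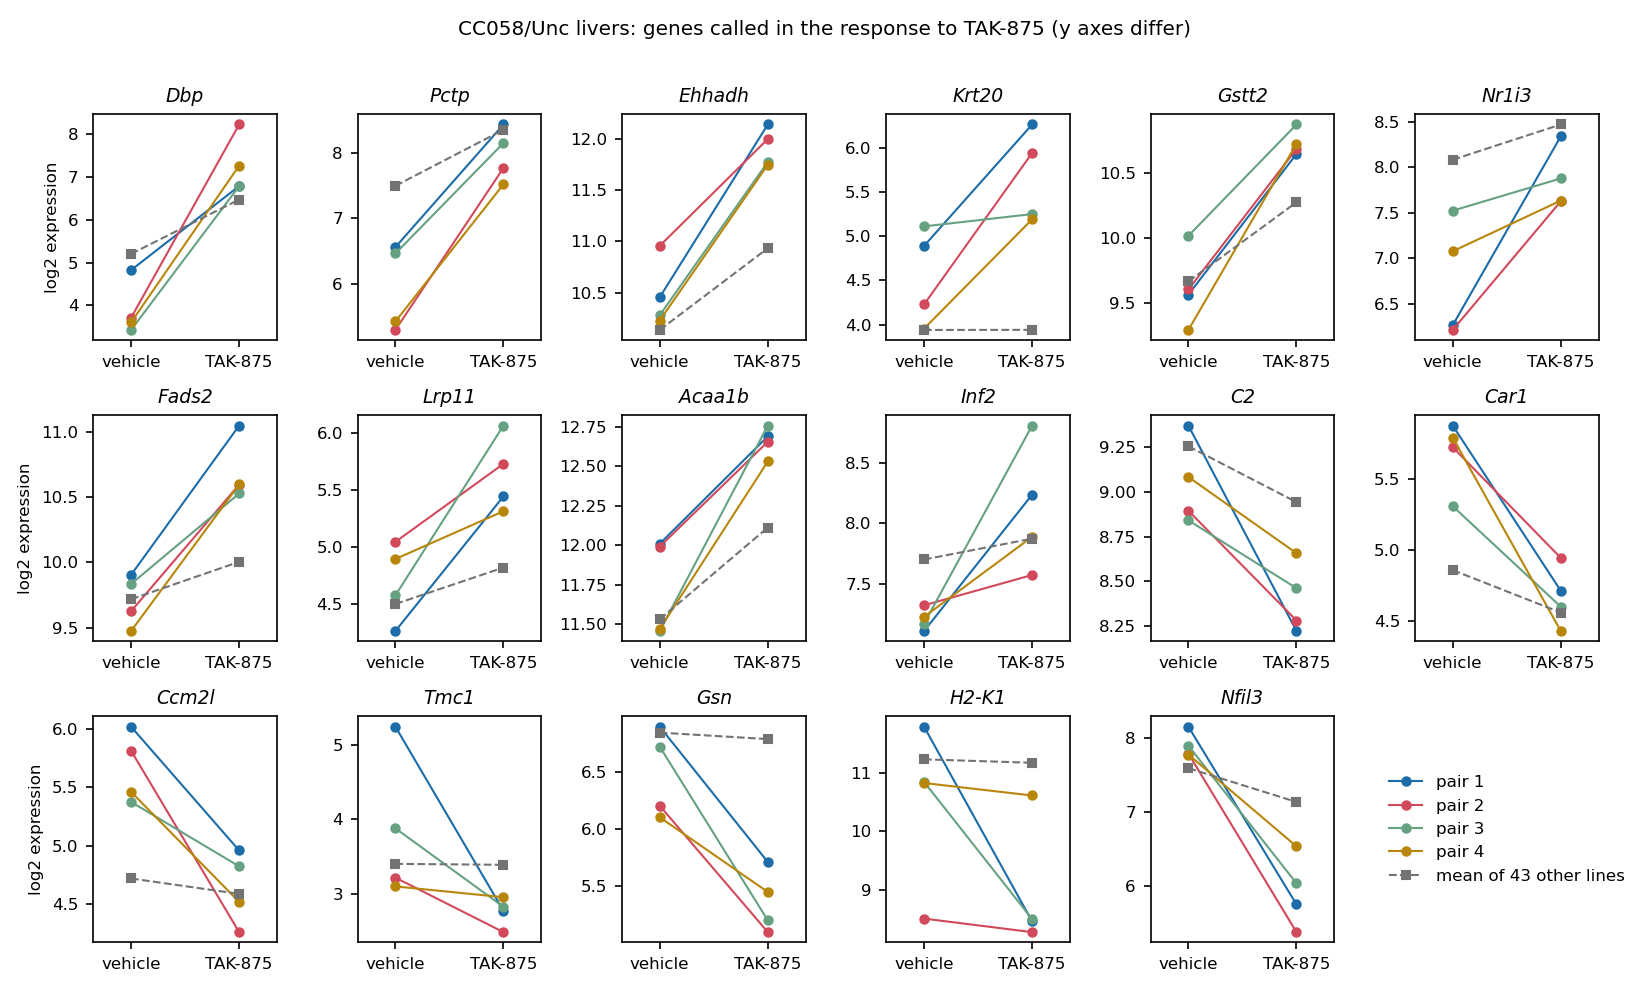
Log2 expression (y axis, 1 scale per gene) in vehicle and TAK-875 livers (x axis) for the 17 genes called in CC058/Unc. Each coloured line joins the 2 mice of a pair, and the dashed grey line joins the means of the 43 other lines. All 4 lines rise in 10 genes and fall in 7, while H2-K1 is low in both mice of pair 2 and high in both of pair 4.

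**Figure D2:**
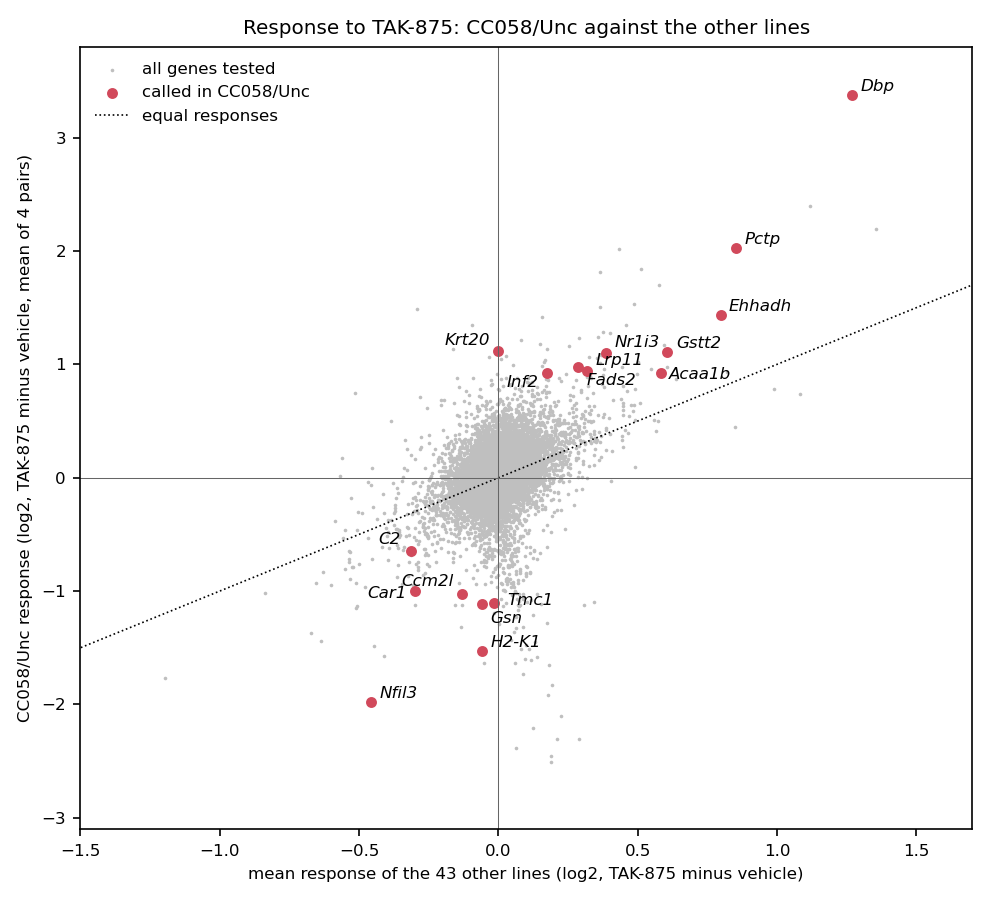
Response of each of 9093 genes in CC058/Unc (y axis, log2, mean of 4 pairs) against the mean response of the 43 other lines (x axis, log2). Red points are the 17 called genes and the dotted line marks equal responses. Krt20 and H2-K1 lie near 0 on the x axis, while Dbp, Pctp and Ehhadh lie high on both.

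Pctp encodes phosphatidylcholine transfer protein, which carries phosphatidylcholine, the main phospholipid of membranes, from membrane to membrane. Its vehicle values were 6.56, 5.30, 6.46 and 5.43 in pairs 1 to 4, and its TAK-875 values were 8.43, 7.77, 8.15 and 7.52. Every TAK-875 liver was above every vehicle liver, and pairs 1 and 3 were the higher in both treatments. Pctp rose by 2.03 ± 0.34 (SD, n = 4 pairs), or 4.07-fold (adjusted p = 2.69e-10), and stayed called when any 1 pair was left out. The second probe set of Pctp changed by 2.16. In the other lines the response averaged 0.85 ± 0.47 (SD, n = 43 lines), ran from 0.11 to 2.37 and was positive in all 43. CC058/Unc exceeded that mean by 1.17 (adjusted p = 0.00911), the second highest response of 44. This difference had an adjusted p of 0.0651 without pair 1, 0.208 without pair 2, 0.0827 without pair 4 and 0.122 without the pairing. The vehicle level of Pctp, 5.94 ± 0.67 (SD, n = 4), was 1.56 below the mean of the other lines (adjusted p = 3.81e-11), whose line means ran from 4.90 to 8.83. Both comparisons use the same 4 vehicle livers, so a low vehicle level enters the response as well.

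The peroxisomal oxidation genes Ehhadh and Acaa1b rose too. Ehhadh encodes the bifunctional enzyme of peroxisomal beta-oxidation, and its vehicle values of 10.46, 10.96, 10.28 and 10.23 became 12.14, 12.00, 11.78 and 11.75. The groups did not overlap, and the gain of 1.44 ± 0.28 (adjusted p = 6.41e-05) held with any 1 pair left out. Ehhadh rose in all other lines as well, by 0.80 on average, and the difference of CC058/Unc from them did not pass (adjusted p = 0.559). Acaa1b, a peroxisomal thiolase, was at 12.01, 11.99, 11.46 and 11.47 with vehicle and at 12.69, 12.65, 12.76 and 12.53 with TAK-875. The TAK-875 livers had an SD of 0.10, and the gain was 0.93 ± 0.31. Its adjusted p of 0.0499 was just inside the threshold, and it was 0.0894 to 0.318 when 1 pair was left out, so no pair could be spared.

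Fads2, the delta-6 desaturase that starts the synthesis of long polyunsaturated fatty acids, was at 9.90, 9.63, 9.84 and 9.48 with vehicle and 11.05, 10.60, 10.53 and 10.60 with TAK-875. The liver of pair 1 was the highest of its treatment group. The rise of 0.98 ± 0.21 (adjusted p = 0.013) was the second highest of the 44 lines, whose mean without CC058/Unc was 0.29, and the difference from them did not pass (adjusted p = 0.287). Without pair 1, pair 2 or pair 4, the adjusted p of the rise was 0.15, 0.0734 and 0.0753. Gstt2, a glutathione transferase of the theta class, moved from 9.57, 9.61, 10.02 and 9.30 to 10.64, 10.68, 10.87 and 10.72. All 4 treated livers were above all vehicle livers, and the rise of 1.11 ± 0.24 (adjusted p = 9.71e-05) held without any 1 pair.

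Of 46 measured PPARA targets, 3 rose (Ehhadh, Fads2 and Acaa1b), 0 fell and 43 did not pass the test. Over all genes, 0.11% rose and 0.077% fell. The response was above 0 in 42 of the 46, against 55.9% of all genes, and above 0 in all 4 pairs in 19, against 12.6% of all genes. The list's median response was 0.36, against 0.03 over all genes tested and 0.26 for the same genes in the other lines. The pair medians differed: 0.63, 0.40, 0.47 and -0.01 in pairs 1 to 4. The low median of pair 4 is seen in Acot1, a cytosolic acyl-CoA thioesterase. It was at 7.13, 6.56, 7.28 and 6.57 with vehicle and 9.75, 9.29, 9.27 and 8.00 with TAK-875, and its response of 2.19 ± 0.60 did not pass (adjusted p = 0.153). A peroxisomal relative, Acot3, had a response of 2.40 ± 1.76 (adjusted p = 0.137). The omega-hydroxylase Cyp4a10 had the most even response of the fixed genes, 0.64 ± 0.06, and did not pass (adjusted p = 0.184): its standard error was 0.21 in the fit over all lines. Values for Vnn1, the pantetheinase, were 0.78 ± 0.90, and those for the carnitine palmitoyltransferase Cpt1a were 0.11 ± 0.65. The receptor gene Ppara itself had a response of 0.38 (adjusted p = 0.739). Without pair 1 the list's median was 0.27, and without pairs 1 and 3 it was 0.16.

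Krt20, an intermediate filament keratin known from intestinal and urinary tract lining, had a response that differed from that of the other lines. It was among the dimmest 25% of genes, at levels not shown to be above background. Its vehicle values were 4.89, 4.23, 5.11 and 3.95, and its TAK-875 values were 6.26, 5.94, 5.25 and 5.19. The treated livers lay above the vehicle livers, but in pair 3 the gap was 0.14 only, against 1.24 to 1.71 in the others. Krt20 rose by 1.11 ± 0.68 (adjusted p = 1.73e-04), the highest response of the 44 lines. The other lines averaged 0.00 ± 0.24 (SD, n = 43) and ran from -0.64 to 0.60, and CC058/Unc exceeded them by 1.11 (adjusted p = 5.97e-04). This difference was not called without pair 1 (adjusted p = 0.0651) or pair 2 (0.124), and the rise was not called without pair 2 (0.0719). Krt20 was also higher with vehicle, by 0.61 over the mean of the other lines (adjusted p = 2.94e-04). The bile duct keratin Krt19 was 3.08 to 3.84 with vehicle and 3.00 to 3.65 with TAK-875. The RefSeq promoter of Krt20 (GRCm38.p6, chr11:99438154-99438403, minus strand) is shown because its gene is 1 of the 3 that differed from the other lines. The capitals mark AGGTCA, the core motif that nuclear receptors recognise, whose first base lies 23 bases before the start.
Krt20: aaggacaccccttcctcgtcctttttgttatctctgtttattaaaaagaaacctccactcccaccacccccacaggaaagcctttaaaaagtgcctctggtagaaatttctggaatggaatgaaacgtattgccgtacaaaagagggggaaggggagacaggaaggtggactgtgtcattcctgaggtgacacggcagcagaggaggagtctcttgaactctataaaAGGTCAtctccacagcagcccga

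The RefSeq table held promoters of 13 of the 17 called genes, and the 250 bases before the start were searched on both strands. A called gene counted if any of its promoters matched, while the shares over all count each of 32851 promoters, so the 2 are not like for like. AGGTCA was in 4 of the 13 (H2-K1, Krt20, Nfil3 and Tmc1), against 14.0% of all promoters. Its direct repeat, with any 1 base between the copies, was in 0 of the 13 and in 0.0335% of all. The E-box CACGTG was in Inf2 and Nr1i3 and in 6.02% of all promoters, and the D-box TTATGTAA was in 0 of the 13 and in 0.819% of all. The motifs overlap only where the direct repeat contains AGGTCA, and a match describes letters, not binding.

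Inf2 and Lrp11 also rose. Inf2 encodes a formin that builds and cuts actin filaments, and it was at 7.10, 7.32, 7.17 and 7.22 with vehicle and 8.24, 7.57, 8.81 and 7.89 with TAK-875. The vehicle livers were tightly grouped (SD 0.09), while the treated ones spread with an SD of 0.53, pair 2 the least. The rise of 0.93 ± 0.60 had an adjusted p of 0.0151, and 0.176 without pair 1 and 0.328 without pair 3. With vehicle, Inf2 was 0.50 below the mean of the other lines, and the same vehicle livers enter the response. Lrp11, a transmembrane protein of the LDL receptor-related group, moved from 4.26, 5.04, 4.58 and 4.89 to 5.44, 5.73, 6.06 and 5.31. Its rise of 0.94 ± 0.48 (adjusted p = 0.0499) was lost without pair 1, 2 or 3 (0.337, 0.0894 and 0.362).

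The clock genes Dbp and Nfil3 moved in opposite directions. Dbp, a D-box activator, was at 4.82, 3.71, 3.43 and 3.60 with vehicle and 6.79, 8.22, 6.78 and 7.26 with TAK-875. The groups were about 2 units apart at their nearest, and Dbp rose by 3.37 ± 1.06 from dim vehicle levels. The adjusted p was 0.0462, and leaving out any 1 pair gave 0.105 to 0.328. Dbp varied widely among the other lines, where the response averaged 1.27 ± 1.11 (SD, n = 43), was positive in 39 and ran from -1.24 to 3.71. CC058/Unc had the third highest response, and its difference from the others did not pass (adjusted p = 0.57).

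Nfil3, the D-box repressor, went from 8.15, 7.79, 7.89 and 7.77 to 5.75, 5.38, 6.03 and 6.53. Each treated liver was more than 1 unit below each vehicle liver, and pair 4 changed least. The fall of 1.98 ± 0.56 (adjusted p = 0.0026), to 3.94-fold lower levels, was the largest of the 44 lines, which averaged -0.46 otherwise, and the difference did not pass (adjusted p = 0.202). Without pair 1 the adjusted p of the fall was 0.105, and without pair 2 it was 0.0734. The promoters of Nfil3 (RefSeq, GRCm38.p6, chr13:52981040-52981289, minus strand) and of the period gene Per3 (chr4:151044666-151044915, minus strand) are set side by side as they hold different clock motifs. In Nfil3 the capitals mark 1 AGGTCA on the opposite strand, the core motif shared by the REV-ERB and ROR clock receptors, which starts 12 bases before the gene's start. In Per3 they mark TTATGTAA, the D-box, which begins 205 and 158 bases before the start.
Nfil3: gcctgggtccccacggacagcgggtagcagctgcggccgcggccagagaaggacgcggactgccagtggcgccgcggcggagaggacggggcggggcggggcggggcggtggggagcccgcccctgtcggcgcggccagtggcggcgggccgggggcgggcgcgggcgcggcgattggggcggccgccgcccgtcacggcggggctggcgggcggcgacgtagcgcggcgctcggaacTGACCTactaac
Per3: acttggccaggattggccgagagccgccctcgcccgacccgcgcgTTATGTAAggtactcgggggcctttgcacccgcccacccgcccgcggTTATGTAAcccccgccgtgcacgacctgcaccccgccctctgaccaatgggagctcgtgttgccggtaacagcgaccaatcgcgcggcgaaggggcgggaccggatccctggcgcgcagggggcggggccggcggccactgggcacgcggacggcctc

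Of 19 measured clock genes, 1 rose (Dbp), 1 fell (Nfil3) and 17 did not pass, while 0.11% of all genes rose and 0.077% fell. The list's median was 0.30, against 0.10 in the other lines and 0.03 over all genes, but without pair 1 it was 0.10 with 10 of the 19 above 0 and 0 called. In all 4 pairs, 8 of the 19 were higher and 5 lower, against 12.6% and 10.5% of all genes. The 5 that were lower were Nfil3, the activators Npas2 and Arntl, the repressor Cry1, and the kinase gene Csnk1d. Npas2 was 5.00, 5.71, 5.24 and 4.96 with vehicle and 3.60, 3.65, 4.20 and 3.68 with TAK-875. All treated livers were below all vehicle livers, and the response of -1.44 ± 0.44 had an adjusted p of 0.0649. Cry1 missed the threshold as well, with a response of -1.12 ± 0.21 (adjusted p = 0.117), and that of Arntl was -0.79 ± 0.36. On the other side, the response was 0.96 ± 0.30 for the D-box activator Tef, 0.98 ± 0.53 and 0.80 ± 0.43 for the period genes Per2 and Per3, and 1.28 ± 0.93 for the REV-ERB gene Nr1d2, none past the test. Per3, with its pair of D-boxes, had an adjusted p of 0.402. In vehicle livers Cry1 was 0.75 above (adjusted p = 0.00283) and Per2 0.72 below (adjusted p = 0.0252) the mean of the other lines. The Per2 call was lost without pair 1, where 0 of the 19 clock genes were called lower with vehicle.

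CAR, the receptor for foreign compounds encoded by Nr1i3, was low in this line and rose with TAK-875. Nr1i3 was at 6.26, 6.21, 7.52 and 7.08 with vehicle and at 8.34, 7.63, 7.88 and 7.63 with TAK-875. The vehicle livers of pairs 1 and 2 were the lowest, and the treated livers of all pairs lay above all vehicle livers. The rise of 1.10 ± 0.80 (adjusted p = 0.0499) was the highest of the 44 lines, whose mean otherwise was 0.39, and the difference did not pass (adjusted p = 0.559). Without pair 1 the change was 0.78 (adjusted p = 0.945), and without pair 2 it was 1.00 (adjusted p = 0.328). With vehicle, Nr1i3 was 1.32 below the mean of the other lines (adjusted p = 1.69e-10), the second lowest of 44. The same vehicle livers enter the response, so the low level and the rise are not independent. The promoter of Nr1i3 (RefSeq, GRCm38.p6, chr1:171213720-171213969, plus strand) is shown for the E-box CACGTG in capitals, which starts 244 bases before the start.
Nr1i3: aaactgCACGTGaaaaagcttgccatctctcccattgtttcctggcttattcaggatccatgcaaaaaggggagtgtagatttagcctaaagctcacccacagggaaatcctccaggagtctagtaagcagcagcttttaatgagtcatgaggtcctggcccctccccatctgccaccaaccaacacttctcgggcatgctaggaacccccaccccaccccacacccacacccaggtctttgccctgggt

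Of 30 measured CAR and PXR targets, Nr1i3 alone rose and 0 fell, against 0.11% and 0.077% of all genes. A response above 0 was seen in 26, against 55.9% of all genes. The list's median response was 0.28, against 0.02 in the other lines and 0.03 over all genes. The pair medians were 0.44, 0.37, 0.15 and 0.35. The drug transporter Abcc3 gave 8.65, 8.04, 8.22 and 8.02 with vehicle and 9.48, 8.81, 9.12 and 8.64 with TAK-875. The response was even among pairs, 0.78 ± 0.12, and did not pass (adjusted p = 0.153). Cyp2b10, the cytochrome P450 most used as a readout of CAR, had a response of 0.77 ± 0.53 (adjusted p = 0.805). Nqo1, a quinone reductase under NRF2, was at 4.15, 3.63, 4.84 and 4.85 with vehicle and 5.34, 5.55, 5.32 and 5.33 with TAK-875, and its response of 1.02 ± 0.69 did not pass (adjusted p = 0.137). The 29 NRF2 targets had 0 calls and a median of 0.13, which was 0.21 without pair 1 and 0.06 with arrays centred on their medians.

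The vehicle levels of the CAR and PXR list differed more from the panel than its response did: 12 of 30 were lower and 2 higher than the mean of the other lines, against 7.83% and 9.39% of all genes. The glutathione transferase Gstm2 was at 6.82, 6.52, 7.58 and 5.68 in CC058/Unc, against a mean of 10.3 in the other lines, a difference of -3.69 (adjusted p = 2.2e-42). Its relatives Gstm3 and Gstm1 were lower by 2.80 and 1.18, and arrays can share probes among such close relatives. Cyp2c37 was at -2.21, Cyp2b10 at -2.07 and Abcc3 at -0.94 relative to the other lines (adjusted p = 1.15e-10, 3.34e-05 and 5.62e-06). The sulfotransferase Sult5a1 went the other way, higher by 1.67 (adjusted p = 1.09e-06). Nqo1, from the NRF2 list, was 1.68 lower (adjusted p = 1.23e-09). The same vehicle livers enter the responses of these genes. Cyp2b10, Cyp2c37, the Gstm genes and Sult5a1 were picked after their values were seen.

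Cholesterol synthesis genes had higher levels with TAK-875 throughout the list, but no member was called. All 16 measured members had a response above 0, against 55.9% of all genes, and 0 rose or fell past the test. In all 4 pairs, 13 were above 0, against 12.6% of all genes. The median response was 0.88, against 0.21 for these genes in the other lines and 0.03 over all genes. Pair medians were 0.81, 1.27, 0.28 and 1.30, so pair 3 lay below the rest. The list's mean level varied more with vehicle (9.04, 8.39, 9.28 and 8.43) than with TAK-875 (9.69, 9.77, 9.51 and 9.59). Lss, which makes lanosterol, was 5.89, 5.16, 6.76 and 5.36 with vehicle and 7.05, 7.76, 6.80 and 7.60 with TAK-875. Its vehicle liver of pair 3 was just below the lowest treated liver, and its response of 1.51 ± 1.16 had an adjusted p of 0.242. Sqle, the squalene epoxidase, was at 8.90, 8.28, 9.40 and 8.20 with vehicle and 10.09, 10.13, 9.68 and 9.80 with TAK-875. The groups did not overlap, and the response of 1.23 ± 0.69 had an adjusted p of 0.49. Both responses were the highest of the 44 lines, and their differences from the other lines did not pass (adjusted p = 0.793 and 0.987). Without pair 1 the list's median was 0.97, and without pairs 1 and 3 it was 1.32. With vehicle, the list's median difference from the other lines was -0.23, and -0.64 without pairs 1 and 3. The same vehicle livers enter the response, so low vehicle levels enter these values as well.

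Fatty acid and triglyceride synthesis genes showed a similar picture with 1 call, Fads2. Of 28 measured, 1 rose and 0 fell, against 0.11% and 0.077% of all genes. A response above 0 was seen in 22, against 55.9% of all genes, and in all 4 pairs in 15, against 12.6%. The median was 0.34, against -0.04 in the other lines and 0.03 over all genes, and the pair medians ran from 0.22 to 0.42. Thrsp, a regulator of lipogenesis, was 10.32, 9.72, 9.56 and 8.38 with vehicle and 10.48, 11.54, 10.92 and 11.00 with TAK-875. The gap was 0.16 in pair 1 and 2.62 in pair 4, and the response of 1.49 ± 1.03 did not pass (adjusted p = 0.428). In the other lines Thrsp averaged -0.29. The response was 1.81 ± 0.90 for Aacs, which activates acetoacetate for lipid synthesis, 1.14 ± 1.13 for the acetyl-CoA synthetase Acss2, 0.63 ± 0.42 for the citrate lyase Acly and 0.82 ± 0.39 for the glycerol-phosphate acyltransferase Gpam. Each of these 5 genes had its highest response of 44 lines in CC058/Unc, and none passed the test of the response or of the difference. Thrsp was also the lowest of 44 with vehicle, by 1.68 (adjusted p = 9.97e-04), and the 2 comparisons share those livers. Thrsp, Acss2 and Acly were picked after their values were seen.

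**Figure D3:**
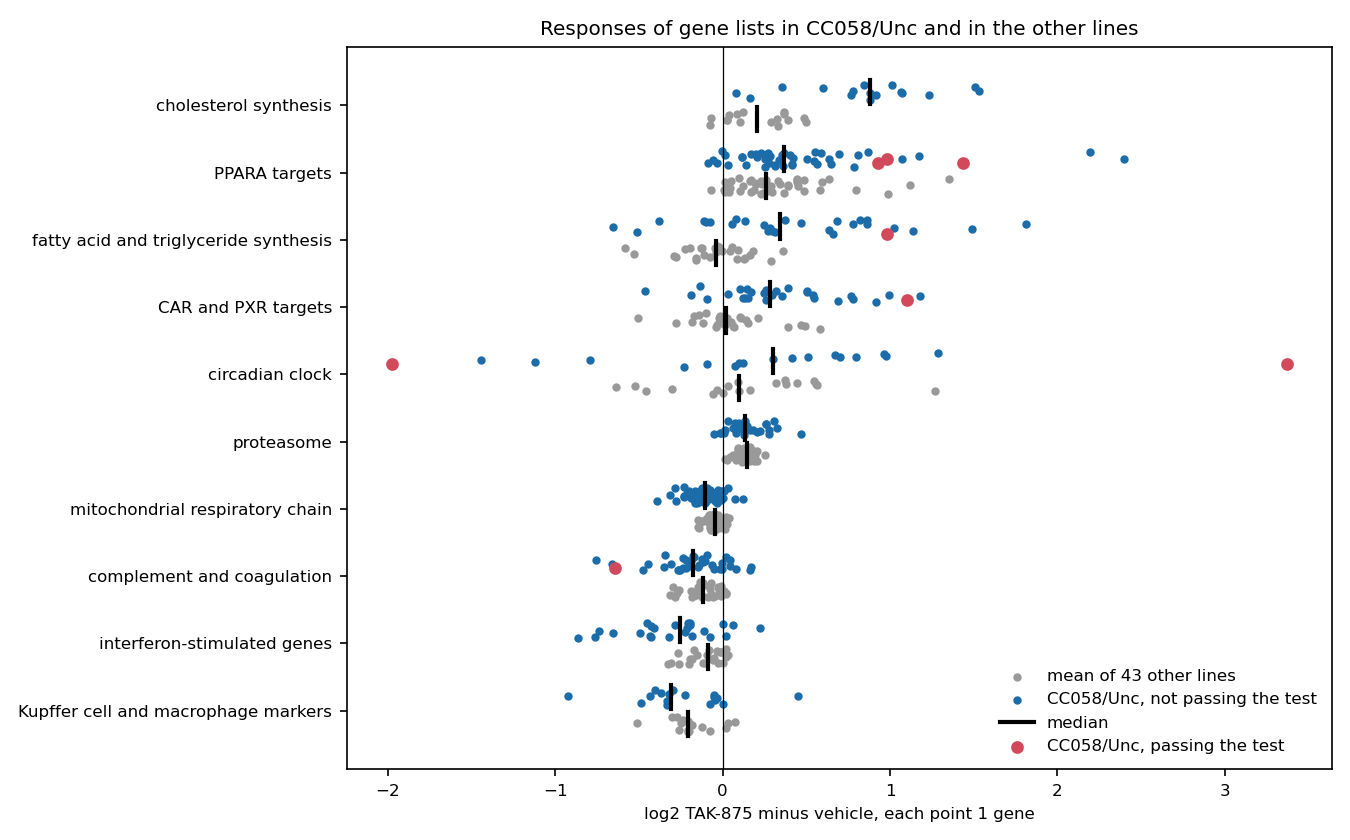
Responses (x axis, log2 TAK-875 minus vehicle) of the members of 10 gene lists (y axis), with CC058/Unc above and the mean of the 43 other lines below in each row. Each point is 1 gene, larger red points passed the test in CC058/Unc, and black bars are list medians. Cholesterol synthesis has the highest median in CC058/Unc, 0.88, and the clock list spans from -1.98 to 3.37.

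Gsn and Car1 fell in all 4 pairs. Gsn encodes gelsolin, which severs actin filaments, and its values of 6.90, 6.20, 6.72 and 6.10 with vehicle became 5.71, 5.10, 5.20 and 5.45. The groups did not overlap, and the fall of 1.12 ± 0.36 (adjusted p = 0.0305) was the largest of 44 lines. Its probe set is of the x class, which can bind unrelated transcripts, and the 3 other probe sets gave 0.21, -0.60 and -0.39 with no call. Car1, a carbonic anhydrase abundant in red blood cells, fell from 5.87, 5.72, 5.31 and 5.79 to 4.71, 4.94, 4.60 and 4.43. The mean went from 5.67 to 4.67, with an SD of the pair changes of 0.31 (adjusted p = 0.0305), and CC058/Unc had the second highest vehicle level of Car1, 0.82 above the other lines (adjusted p = 9.02e-04). Red blood cell markers stood beside it: 0 of 3 passed, Alas2 was 8.91 to 9.32 with vehicle and 8.15 to 8.88 with TAK-875, and the list's mean level was 6.27 to 6.61 and 6.02 to 6.31. Their part in the fall of Car1 was not tested. Neither call was kept without pair 1, at adjusted p of 0.176 for Gsn and 0.23 for Car1, nor without pairs 2 or 3 (0.107 and 0.245 for Gsn, 0.0734 and 0.0565 for Car1). Car1 also missed without pair 4 (0.134).

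Ccm2l, named for its likeness to an endothelial scaffold gene, and Tmc1, a channel subunit of inner ear hair cells, fell at low levels. Ccm2l went from 6.02, 5.81, 5.37 and 5.46 to 4.96, 4.26, 4.82 and 4.52, a change of -1.03 ± 0.41 (adjusted p = 0.0499). Its second probe set, tested among all probe sets, fell by 1.68. With vehicle, the 2 probe sets were 0.95 and 2.22 above the mean of the other lines, and the same vehicle livers enter the response. Endothelial markers had 0 of 19 calls and a median of -0.13, which was -0.06 without pair 1 and -0.20 with arrays centred. Leaving out any 1 pair ended the Ccm2l call (0.0565 to 0.38). Tmc1 was 5.25, 3.22, 3.88 and 3.10 with vehicle and 2.77, 2.49, 2.83 and 2.96 with TAK-875. The vehicle liver of pair 1 stood above all others, and the change of -1.10 ± 0.99 (adjusted p = 0.0462) became -0.64 (adjusted p = 1.0) without that pair. Without pair 3 its adjusted p was 0.174 and without pair 2 0.0734.

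C2, a protease of the complement pathway, was the 1 called member of its list. It was 9.37, 8.90, 8.84 and 9.08 with vehicle and 8.22, 8.28, 8.46 and 8.66 with TAK-875, so the groups stood apart, with the widest gap in pair 1. The fall of 0.64 ± 0.35 (adjusted p = 0.027) became 0.47 (adjusted p = 0.64) without pair 1, and its adjusted p was 0.0894 without pair 2. Of 36 complement and coagulation genes, 1 fell and 0 rose, against 0.077% and 0.11% of all genes. In all 4 pairs, 16 of the 36 were lower, against 10.5% of all genes. The list's median was -0.18, against -0.12 in the other lines. The kininogen gene Kng1 had the lowest response of 44 lines, -0.45 ± 0.10 (adjusted p = 0.14), and that of the lectin Mbl2 was -0.47 ± 0.11 (adjusted p = 0.157).

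Immune and energy lists held no calls. Their counts of responses above 0 stand beside 55.9% of all genes. Of 24 interferon-stimulated genes, 0 rose, 0 fell and 3 had a response above 0, with a median of -0.25 against -0.09 in the other lines. The response was -0.76 ± 0.54 (adjusted p = 0.296) for the interferon regulator Irf7 and -0.74 ± 0.22 (adjusted p = 0.211) for Irf1. With vehicle, 8 of the 24 were higher and 1 lower than in the other lines, against 9.39% and 7.83% of all genes. They were led by Ifi27, higher by 1.84 (adjusted p = 8.05e-20), and Iigp1, by 1.52 (adjusted p = 2.91e-05), both the highest of 44. Of 18 Kupffer cell and macrophage markers, 0 passed and 1 was above 0, and the median was -0.31, against -0.21 in the other lines. The Kupffer markers Clec4f and Vsig4 were 7.72 to 8.37 and 6.81 to 7.25 with vehicle and 7.38 to 7.84 and 6.06 to 6.92 with TAK-875. The mean level of the list was 6.52 to 6.57 with vehicle and 6.03 to 6.48 with TAK-875, and fewer cells of a type and less RNA per cell cannot be told apart in whole liver. Pairs 1 and 2 carried this difference, with medians of -0.68 and -0.46, against -0.04 and 0.03 in pairs 3 and 4, and without pair 1 the list's median was -0.13. The interferon list had pair medians of -0.43, -0.64, 0.05 and -0.17 in pairs 1 to 4. Its median was -0.28 without pair 1 and -0.42 without pairs 1 and 3. With vehicle and without pair 1, 5 interferon-stimulated genes were called higher than in the other lines and 0 lower. Of 59 respiratory chain genes, 0 passed and 5 were above 0, with a median of -0.11 against -0.05 in the other lines. Of 30 proteasome genes, 0 passed and 27 were above 0, with a median of 0.13 in CC058/Unc and 0.14 in the other lines. With arrays centred on their medians, the medians of CC058/Unc were 0.06 for the proteasome and -0.18 for the respiratory chain.

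H2-K1, an MHC class I heavy chain that presents peptides to T cells, was called with the largest difference from the other lines, but its values did not follow treatment alone. It was 11.78, 8.51, 10.84 and 10.82 with vehicle and 8.46, 8.28, 8.50 and 10.61 with TAK-875. Of the 8 livers, 4 lay at or below 8.51 and 4 at or above 10.61, including 1 low vehicle liver (pair 2) and 1 high treated liver (pair 4), and the groups overlapped. The mean change of -1.53 ± 1.56 (adjusted p = 1.02e-06) came from pairs 1 and 3, which fell by 3.32 and 2.34, while pairs 2 and 4 fell by 0.23 and 0.21. The other lines averaged -0.06 ± 0.24, and the difference of -1.47 was called (adjusted p = 1.19e-05). Without pair 1 the change was -0.93 (adjusted p = 0.105), and without pairs 1 and 3 the difference from the other lines was -0.16 (adjusted p = 1.0). Its probe set is of the x class, and the 2 other probe sets of H2-K1, of the same class, gave -0.25 and -0.22 and were not called.

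The class I genes H2-D1 and H2-Bl also split the 8 livers, while the family member H2-Q10 stayed at 11.55 to 11.82 in all of them. H2-D1, a second classical class I gene, was 11.90, 10.36, 11.22 and 11.26 with vehicle and 10.08, 11.15, 10.34 and 11.28 with TAK-875. H2-Bl, a further gene of the family, was 7.86, 3.99, 7.01 and 6.63 with vehicle and 3.92, 6.42, 3.59 and 6.66 with TAK-875. In both, the low livers were the vehicle mouse of pair 2 and the treated mice of pairs 1 and 3, and neither response passed (adjusted p = 0.153 and 0.156). The treated mouse of pair 2 was low for H2-K1 and high for the other pair of genes. In the other 43 lines, the H2-K1 probe set was below 9.5, a level set between the 2 clusters after the values were seen, on 86 of 334 arrays from 13 lines, and 5 lines had arrays on both sides.

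**Figure D4:**
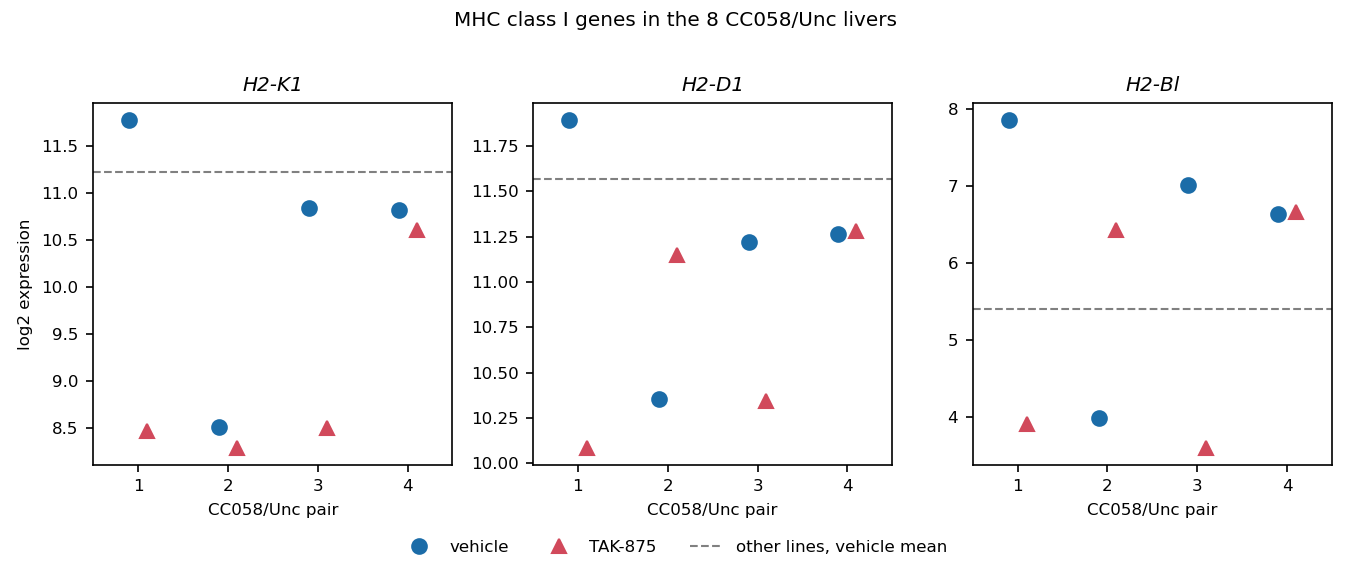
Log2 expression (y axis) of 3 MHC class I genes in the 8 CC058/Unc livers by pair (x axis), with vehicle as blue circles, TAK-875 as red triangles and the vehicle mean of the other lines dashed. For H2-K1, 4 livers lie at or below 8.51 and 4 at or above 10.61, and both kinds occur in each treatment.

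Bile acid genes, looked at because of the compound's history, held no call. Cyp7a1, whose enzyme sets the pace of bile acid synthesis, was 3.56, 5.10, 5.17 and 5.32 with vehicle and 4.60, 5.50, 4.61 and 5.28 with TAK-875. The vehicle liver of pair 1 was the lowest, and the response was 0.21 ± 0.68 (adjusted p = 0.971). Its vehicle level was 2.09 below the other lines (adjusted p = 0.00504). This call was lost without pair 1, where 0 of 20 bile acid synthesis genes were called lower with vehicle. Cyp8b1, which makes cholic acid, was at 10.79, 10.04, 10.18 and 10.31 with vehicle and 9.25, 9.53, 9.42 and 9.34 with TAK-875, with no overlap and a response of -0.94 ± 0.44 (adjusted p = 0.402). The response was 0.44 ± 0.65 for the bile salt export pump Abcb11, 0.56 for the phospholipid exporter Abcb4, 0.27 for the conjugate exporter Abcc2 and -0.04 for the bile acid uptake carrier Slc10a1. Dio1, the deiodinase that activates thyroid hormone, was 10.52, 10.70, 9.98 and 10.36 with vehicle and 8.62, 8.38, 9.06 and 8.43 with TAK-875. Its groups were well apart, and its response of -1.76 ± 0.59 was not called (adjusted p = 0.471). In all, 33 of the 41 gene lists had no member called in CC058/Unc.

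More genes differed from the other lines at baseline than in the response. With vehicle, 1566 genes differed from the mean of the other lines (17.2% called, 854 or 9.39% higher and 712 or 7.83% lower). Differences over 1 log2 unit were seen in 113 higher and 120 lower genes, and over 3 units in 3 and 10. Without pair 1, 1211 genes were called, 1107 of them among the 1566, and without pairs 1 and 3 780 were called.

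The largest deficit was in Rdh16f2, a retinol and steroid dehydrogenase of the RDH16 family. Its CC058/Unc vehicle values of 3.39, 3.77, 4.62 and 4.10 compare with a mean of 9.42 ± 1.53 (SD, n = 43 lines), a difference of -5.45 (adjusted p = 1.63e-43). CC058/Unc was the lowest line, with the next lowest at 4.20. Ddah1, which breaks down the nitric oxide synthase inhibitor asymmetric dimethylarginine, was 4.70, 4.18, 3.74 and 4.48, against 8.39 ± 1.32. That is a difference of -4.12 (adjusted p = 2.9e-34), and other lines ranged down to 3.79. Both genes were dim in CC058/Unc, at levels not shown to be above background, so no fold is given. Aldh1b1, a mitochondrial aldehyde dehydrogenase, was 4.60, 4.68, 5.14 and 4.79, while no other line was below 7.10. The difference of -3.18 (adjusted p = 5.77e-39) thus put CC058/Unc outside the range of the panel. Slc3a1, a subunit of the cystine transporter, was lower by 3.51, the peptide hormone gene Enho by 3.45, the dehydrogenase Sdr9c7 by 3.43 and the cytochrome P450 Cyp2g1 by 3.09. Of these, Sdr9c7 alone was the lowest of 44, and 1 to 3 other lines were lower than CC058/Unc for the rest.

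Among the genes higher in CC058/Unc, Akr1c18, which inactivates progesterone, led with 9.60, 9.87, 9.76 and 9.55, against 5.93 ± 2.39. The excess of 3.76, or 13.6-fold (adjusted p = 2.53e-18), was shared by other lines, which reached 10.3. Ugt3a2, a glycosyltransferase, was at 11.07 to 11.24, 3.25 above a panel mean that spanned 3.65 to 11.6. Nlrp12, a regulator of inflammatory signalling, was 7.46, 7.91, 8.25 and 8.05, against 4.77 ± 1.91, and was the highest of 44 (adjusted p = 3.08e-18). Hsd3b2, a steroid dehydrogenase, and the transcription factor Tcf24 were also the highest, by 2.27 and 2.24 over the mean. The remaining ones were 9130409I23Rik at 2.48 and Gm12185 at 2.32, the second of which was the highest of 44.

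Elovl3, the fatty acid elongase with male-biased expression in liver, was 12.60, 12.53, 12.18 and 12.42 in CC058/Unc vehicle livers. The other lines averaged 10.2 ± 1.55, and the excess of 2.23 (adjusted p = 3.49e-04) was the highest of 44. Hsd3b5, a male-biased steroid dehydrogenase, was the highest as well, by 1.53 (adjusted p = 0.00261). In the list of 20 male-biased genes, 8 were higher and 0 lower with vehicle, against 9.39% and 7.83% of all genes. In the list of 21 female-biased genes 0 were higher and 3 lower. All mice of the series were male. Among PPARA targets, 12 of 46 were higher and 1 lower with vehicle, against the same 9.39% and 7.83% of all genes. The lipid droplet protein gene Plin2, the fatty acid binding protein gene Fabp1, Acadl and Slc22a5 had their highest vehicle level of 44 lines here, by 0.65, 0.34, 0.41 and 0.72. Of the 16 vehicle genes chosen by size, 3 had other probe sets, 7 in all, and each of the 7 pointed the same way, 6 with a call.

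**Figure D5:**
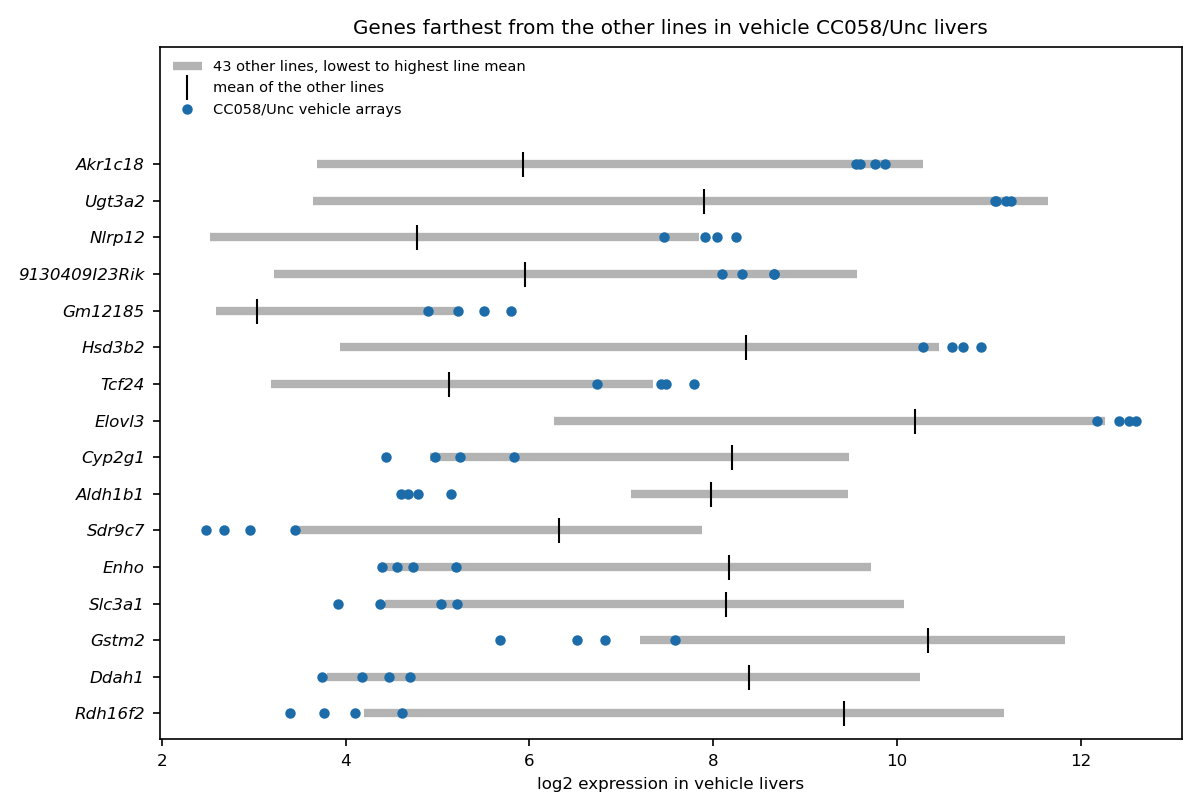
Log2 expression (x axis) in vehicle livers of the 16 genes farthest from the other lines in either direction (y axis). Blue points are the 4 CC058/Unc livers, grey bars span the lowest to the highest mean of the 43 other lines, and black ticks are their means. Aldh1b1 lies outside the range of the panel in all 4 livers.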

How the data were processed

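Liver RNA was hybridised to 1-colour Affymetrix mouse arrays after biotin labelling, per the labels. The authors deposited log2 values per probe set, which the submitters' processing notes credit to RMA and Affymetrix Power Tools. RMA subtracts background, brings arrays to a common scale and merges the probes of a set. No version is given in the sources used here. There are 16397 probe sets on 342 arrays, with values from 1.62 to 13.81, and array medians run from 5.40 to 6.22, so other scalings were tried. Of the probe sets, 13083 name 1 gene, 261 several and 3053 none in the platform's gene table. A gene with several probe sets took the 1 with the highest mean, which left 9093 genes. Detection calls were not used here, so a low level is not shown to be expression, and the number of arrays limits the precision.

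Pair differences (TAK-875 minus vehicle) of 171 pairs were fitted with limma 3.58.1 in R 4.3.3, 1 mean per line, with variance trended on level and 127 residual degrees of freedom. CC058/Unc was tested against 0 and against the mean of the other lines. Vehicle arrays were fitted in the same way. P-values are two-sided and Benjamini-Hochberg adjusted over all genes at 0.05. The pairing comes from the labels, and the correlations between the deviations of the CC058/Unc pair mates were -0.10, 0.25, 0.06 and -0.10. Founder variants under the probes were not considered here. The fit was tested on simulated data. For the CC058/Unc response it recovered 30% of changes of 0.5 log2 units, 76% of 1 and 100% of 2, with 6 false calls among 156. The simulated noise was independent, with the same spread in every line and no array set apart, unlike the vehicle array of pair 1. Treated arrays were given the spread of vehicle arrays, and a changed gene had the same true change in every pair. Responses that vary among pairs were not simulated, so the shares recovered do not cover them. Tables and figures used Python 3.11.15, pandas 2.3.3, numpy 2.4.6 and matplotlib 3.10.9.

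Named genes were the called genes, up to 8 per direction for the differences from other lines and for vehicle levels, up to 4 per list, and fixed genes of bile acid and lipid handling. Further genes are said in the text to be picked after their values were seen, which also holds for Arntl, Tef, Per2, Nr1d2, H2-D1, H2-Bl, Acot3, Hsd3b5, Ifi27, Iigp1 and the PPARA targets given for vehicle. The members and the 41 lists (765 of 1032 entries measured) were chosen with earlier results of these data known. Lists are described by counts and medians beside all genes, with no set test. Cyp4a14, a fixed gene, was not analysed here. Promoters are from RefSeq on GRCm38.p6.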

Additional observations from a re-analysis of the deposited data

Results flagged for a closer look

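The response of CC058/Unc differed from the mean of the other lines in 3 genes, each by a test of the difference itself: Pctp by 1.17, Krt20 by 1.11 and H2-K1 by -1.47 on the log2 scale.

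Among 394 groups of 4 livers looked at, 26 (6.6%) had 1 liver far from the other 3 by Dixon's test, where chance gives 5%. The vehicle and the treated liver of pair 1 accounted for 6 each. The vehicle liver was low for the stress gene Gadd45g (4.86), Cyp7a1 (3.56) and the proteasome gene Psmc1 (9.5), and high for Edem2 (8.87) and the muscle genes Eno3 (4.86) and Tnni2 (6.31). Gadd45g was at 7.83 to 8.03 in the other 3 vehicle livers. Among the other vehicle livers, pair 2 was low for the B cell marker Cd79a (4.38) and high for Pdia3 (4.60), and pair 4 was low for the respiratory chain gene Ndufs6 (10.55).

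Of the treated livers, pair 1 was high for Fads2 (11.05), Atf5 (11.49), the pancreas marker Ctrb1 (4.47) and Enho (4.84), and low for Ccng1 (6.57) and the endothelial marker Clec4g (8.76). Pair 2 was high for Tef (8.27), Nqo1 (5.55) and 9130409I23Rik (9.23). Pair 3 was high for Npas2 (4.20) and C9 (10.76) and low for the stellate cell gene Reln (7.09). Pair 4 was high for H2-K1 (10.61), Mcm4 (5.31) and Ndufv3 (11.10), and low for the endothelial ligand Wnt2 (4.52) and for the PXR gene Nr1i2 (6.76), which was at 7.52 to 7.59 in the other treated livers.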

How the results depend on the processing

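The count of 17 called responses depended on the setting. It was 9 without the replicate block (the pairing of mice), 7 with arrays centred on their medians (4 higher and 3 lower), 11 with the dimmest 25% of genes left out, and 9 with probe sets of class x, s or a left out, which tests 6649 genes. With a pair left out in turn it was 6 to 15, and 5 without pairs 1 and 3, chosen after seeing the data for the low medians of their vehicle arrays. It was 61 when 24 pairs of other lines with a poorly correlated array were left out. On the CC058/Unc arrays alone limma called 0, with 1036 genes at an unadjusted p under 0.05 and 3 residual degrees of freedom. The differences from other lines numbered 1 to 5 with a pair left out and 6 without the poorly correlated pairs. Without pair 1, 0 of the 3 genes of the report were called. They could not be tested on CC058/Unc arrays alone. The vehicle differences numbered 780 without pairs 1 and 3 and 1122 to 1819 under the other settings. Quantile normalization again, the mean of probe sets, no variance trend and robust variance gave 13 to 18 responses and 3 differences. No named gene that was called reversed its direction under any of these settings. The median of the PPARA targets ran from 0.16 to 0.50. The cause of the other changes was not tested. Signal over background was not used here, so how far dim levels limit these calls is not known.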
